A study of Drosophila melanogaster with 2 samples.

Results

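Among the 6153 reproducible summits of Cnc in wandering larvae, 221 lay within 1000 bp of the annotated start of a non-coding gene and had no protein-coding start within 1000 bp. These 221 summits, at the promoters of non-coding genes only, were chosen by distance alone, and the signal value of a peak played no part in the choice. A summit is the highest point of a peak, and a transcription start site (TSS) is the annotated 5′ end of any transcript of a gene. Another 3832 summits had a protein-coding TSS within 1000 bp and are called coding-promoter summits, including 345 that had a non-coding TSS in reach as well. The remaining 2100 lay away from promoters of either kind.

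The chromatin came from whole larvae of the last instar at the wandering stage, males and females pooled, of the Drosophila melanogaster strain cnc-GFP, whose insertion adds eGFP to the C-terminal end of Cnc. It was sheared by sonication and precipitated with an antibody against GFP. There was 1 group with 2 biological replicates, both from the same line, and neither a second genotype nor a control library was analysed here. The age of the larvae is not given in the labels, and a peak list holds no expression values from which the tissues could be checked. In chromatin from whole larvae, strong binding in a few cells and weak binding in many cannot be told apart.

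Cnc (cap'n'collar) is a transcription factor of the Nrf family, built around a basic leucine zipper (bZIP), and binds DNA as a partner of small Maf proteins. Its long isoform switches on genes of antioxidant and detoxification defence and is restrained by Keap1. Non-coding genes are made by several machineries. Long non-coding RNAs (lncRNAs) and the precursors of most microRNAs (miRNAs) are transcribed by RNA polymerase II, and transfer RNAs (tRNAs) by RNA polymerase III from promoter elements inside the gene. The annotated 5′ end of a miRNA, or of a small nucleolar RNA (snoRNA) encoded in an intron, is the end of a processed product and need not be where transcription starts.

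The windows below show the DNA under the highest summit of the main kinds of gene and under members that held the Cnc-Maf motif. Each window spans 50 bp either side of the summit in the RefSeq sequence of the dm6 chromosomes, read 5′ to 3′ on the plus strand. Capitals mark the Cnc-Maf motif TGACNNNGC on either strand where the window held one. In the windows without it, the single capital is the summit base.
lncRNA:CR44619 (chrX:12752292-12752392, plus strand): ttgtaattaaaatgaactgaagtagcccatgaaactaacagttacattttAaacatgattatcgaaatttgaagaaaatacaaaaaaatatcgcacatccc
asRNA:CR44512 (chrX:19668549-19668649, plus strand): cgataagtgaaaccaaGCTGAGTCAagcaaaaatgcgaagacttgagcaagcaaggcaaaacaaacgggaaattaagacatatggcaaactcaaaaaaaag
tRNA:Gln-TTG-2-1 (chrX:3427718-3427818, plus strand): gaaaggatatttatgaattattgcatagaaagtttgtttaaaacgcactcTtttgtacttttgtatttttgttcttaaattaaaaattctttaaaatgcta
mir-275 (chr2L:7425286-7425386, plus strand): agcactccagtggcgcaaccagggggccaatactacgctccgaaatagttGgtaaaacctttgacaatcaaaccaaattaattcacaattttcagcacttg
lncRNA:CR45234 (chr3L:18195199-18195299, plus strand): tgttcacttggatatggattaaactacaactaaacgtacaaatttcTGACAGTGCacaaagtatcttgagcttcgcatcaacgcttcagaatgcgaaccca
lncRNA:CR45540 (chrX:9582747-9582847, plus strand): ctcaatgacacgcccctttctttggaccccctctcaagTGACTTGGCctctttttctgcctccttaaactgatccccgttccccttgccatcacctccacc
The second window holds the strict motif TGACTCAGC, seen on the minus strand, starting 34 bases before the summit. The windows of CR45234 and CR45540 hold looser matches that start 4 and 12 bases before it. The tRNA window, with a GC content of 21.8%, shows the A and T richness of many of these summits.

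Long non-coding RNAs made up most of the set. The gene with the nearest non-coding TSS was a lncRNA at 162 summits (73.3%), a tRNA at 22, an antisense RNA at 12 and a miRNA at 9. Small nuclear RNAs (snRNAs), snoRNAs and pseudogenes had 5 each, and a stable intronic RNA, sisRNA:4, had 1. No summit lay by a ribosomal RNA gene, a kind that took up 0.999% of the DNA within reach of non-coding starts only. For comparison, lncRNAs were 52.0% of the 3738 annotated non-coding genes and took up 64.1% of the DNA within reach of non-coding starts only. Antisense RNAs were 13.5% of the genes, took up 10.1% of that DNA and had 5.43% of the summits. The 221 summits belonged to 188 nearest genes, of which 160 had 1 summit, 23 had 2 and 5 had 3. Of these summits, 36 had more than 1 non-coding gene in reach.

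The highest member lay inside the lncRNA gene CR44619 on the X chromosome, 475 bp after its start, in the peak chrX:12752158-12752543. It had a signal value of 3360 in the call on pooled replicates, 1644 in replicate 1 and 1757 in replicate 2. The signal value is the authors' peak score against a control, with a scale that is not stated. This summit was the 33rd highest of all. The same gene had 2 further summits upstream of its start, 587 bp and 388 bp away, with signal values of 1601 and 1025. The nearest protein-coding TSS, that of CG4004, was 6025 bp from the highest of the summits.

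The next highest member stood by a classic enzyme of redox metabolism. It was nearest to the start of the antisense RNA CR44512, 853 bp upstream of it, in the peak chrX:19668433-19668794. The summit lay in an intron of Zw, which encodes glucose-6-phosphate dehydrogenase, the entry enzyme of the pentose phosphate pathway and a main source of NADPH. In mammals the gene of this enzyme is a known target of Nrf2. The summit had a signal value of 3313 in the pooled call, 1948 in replicate 1 and 1420 in replicate 2, so that both replicates ranked it high. It stood 1123 bp upstream of the nearest Zw TSS, just outside the limit of the coding class. The Zw gene had 1 other reproducible summit, 220 bp upstream of an earlier Zw start, with a signal value of 420.2. The intronic summit was also the highest of the 6 reproducible summits whose window held the strict Cnc-Maf motif. Those 6 were 0.0975% (0.0358 to 0.212) of all summit windows. The motif was in 0.065% (0.0281 to 0.128) of windows 1000 bp to either side of summits, and the intervals overlapped.

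The next lncRNA summits lay far from any coding start or within large host genes. CR31044 on 3R had its summit 162 bp upstream of its start, with a signal value of 3104 in the pooled call, 1758 in replicate 1 and 1379 in replicate 2. Its nearest protein-coding TSS, of the translation elongation factor gene eEF1gamma, was 5772 bp away. The summit of CR46035 on 3R lay inside that gene and in an intron of osa, which runs on the other strand and encodes a subunit of the Brahma chromatin remodelling complex. It had a signal value of 2979, 1630 in replicate 1 and 1368 in replicate 2. The summit of CR43287 on the X, 814 bp upstream of its start, lay in an intron of the forkhead gene CHES-1-like, which runs on the other strand, and had 2729 in the pooled call. Its replicates were less alike, at 1843 in replicate 1 and 910 in replicate 2. CR45997 lay on the same strand as its host mbl, the splicing regulator muscleblind, with 2079 in the pooled call. The summits in CHES-1-like, osa and mbl were each the highest of their host gene.

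The rest of the 25 highest members fell between 1621 and 891. CR45643 had a signal value of 1621 and lay 3165 bp from the nearest protein-coding TSS, that of tara. CR44676 had 1620, and CR46102 had 1590 in an intron of LpR2, a lipophorin receptor that takes up lipid, where it was the sole reproducible summit. CR46036, the neighbour of CR46035 in osa, had 1550, with 1131 in replicate 1 and 426.6 in replicate 2. CR42794, CR31840, CR34052 and CR32773 had between 1205 and 1248. CR46113, CR44478, CR45737, CR43337, CR45234 and CR45054 had between 891 and 1037. CR34052 lay in an intron of the kinase gene Raf, and CR44478 in one of Socs36E, a feedback inhibitor of JAK/STAT signalling. The antisense RNA CR45999 and mir-275 had 912 and 905.

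**Figure D1:**
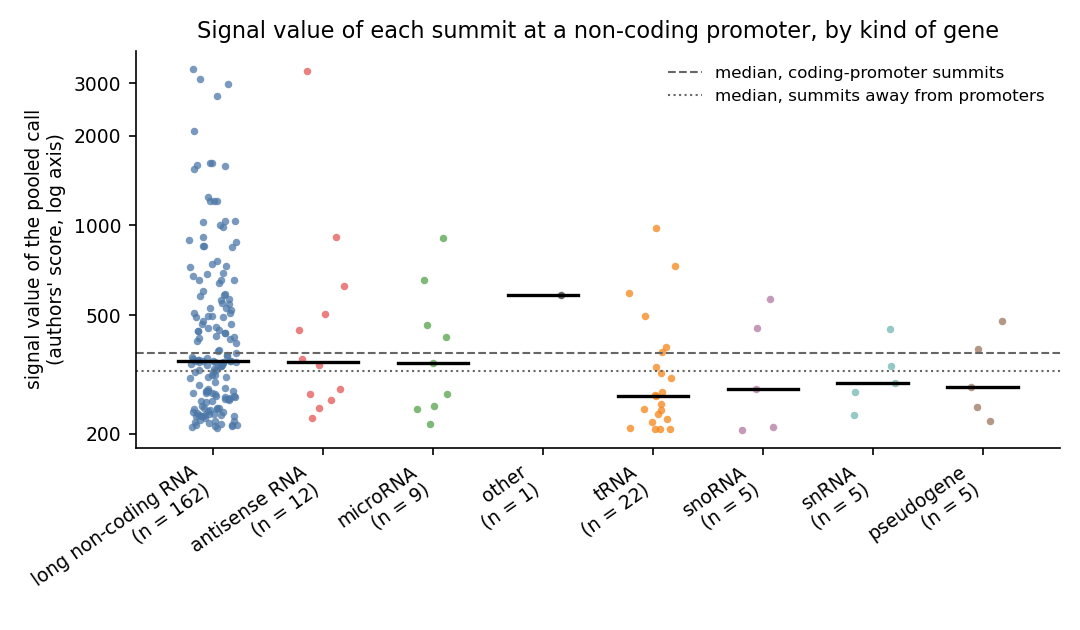
Signal value of the pooled call (log axis) for each of the 221 summits at promoters of non-coding genes only, by kind of the nearest non-coding gene; thick bars are medians and the 2 horizontal lines are the medians of coding-promoter summits and of summits away from promoters. The lncRNA summits run from 208.4 to 3360, while the 22 tRNA summits have a median of 268.5.

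As a set, the members were of ordinary height. Their median signal value was 345.9 (95% interval of the median 321.9 to 363), with quartiles at 256.9 and 528.4 and a range of 206.3 to 3360. The median was 373.3 (363.5 to 385.7) for coding-promoter summits and 325.5 (316.4 to 335.8) for summits away from promoters. Of the members, 41 (18.6%, exact 95% binomial interval 13.7 to 24.3) were among the 1230 highest summits of the list, which are 20.0% of all, so that their share was near the background. It was 23.2% of coding-promoter summits and 14.2% of summits away from promoters. These intervals cover counting error over summits only, and summits are not replicates.

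By kind of gene, tRNA summits had the lowest median signal value, 268.5 (223.4 to 376.4). Summits at lncRNAs had a median of 350.9 (336.7 to 401.5), and the intervals overlapped. At antisense RNAs the median was 348.4 and at miRNAs 345.9, on 12 and 9 summits. At snoRNAs, pseudogenes and snRNAs it was 282.3, 287.7 and 295.7, on 5 summits each, all within the tRNA interval. The highest tRNA summit lay 245 bp upstream of tRNA:Gln-TTG-2-1, with a signal value of 982.3, 577.2 in replicate 1 and 443.1 in replicate 2. The snoRNA summits were led by snoRNA:185 with 564.7, followed by Me18S-G1358a with 453.0, Me18S-C1968 with 282.3 and Or-ACA9 with 210.1. The pseudogene summits were led by CR42490 with 479.0 and 287.7, CR43670 with 384.1 and CR43972 with 245.9. The summit at sisRNA:4, in an intron of the neural repressor gene dpn, had 583.8.

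Both replicates held a peak at nearly every member. A peak of each replicate list overlapped 215 of the 221 (97.3%, 94.2 to 99.0), a share largely set by how the reproducible list was made. A stricter reading asks whether the peak was among the 6153 highest of both replicate lists, which was so for 159 members (71.9%, 65.5 to 77.8) against 72.8% of all summits. The share was 76.5% (69.3 to 82.8) at lncRNAs and 36.4% (17.2 to 59.3), or 8 of 22, at tRNAs. Across the 215 members with both values, Spearman's rho between the replicates was 0.736, given as a description of summits from the same libraries; over all summits it was 0.753. At tRNAs it was 0.331, over 20 summits of low signal. Of the members, 22 shared the same peak of both replicates with another member, as at CR44619, and their replicate values are not separate measurements. Sharing with summits outside the set was not counted. It occurs, as at CR43334, whose replicate values of 291.7 and 250.4 are also those of the summit nearest to bantam.

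The 6 members without a peak in both lists were named after their values were seen. Replicate 1 had no peak at CR46265 (568.4 in the pooled call), CR44776, CR44908, a summit of CR42490 and a summit of tRNA:Arg-ACG-1-1. Replicate 2 had none at tRNA:Pro-AGG-1-2. Among members with both peaks, the largest difference in rank was at CR44764, with 112.1 in replicate 1 and 31.76 in replicate 2. The next were CR46322 (204.5 and 49.11) and CR44713 (148.0 and 52.21). In the other direction stood CR44468, with 46.66 in replicate 1 and 200.5 in replicate 2, then a summit of CR43626 (53.56 and 149.7) and tRNA:Leu-CAG-1-4 (54.08 and 127.0). All 6 had pooled signal values between 207.6 and 274.2, in the lower part of the list.

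**Figure D2:**
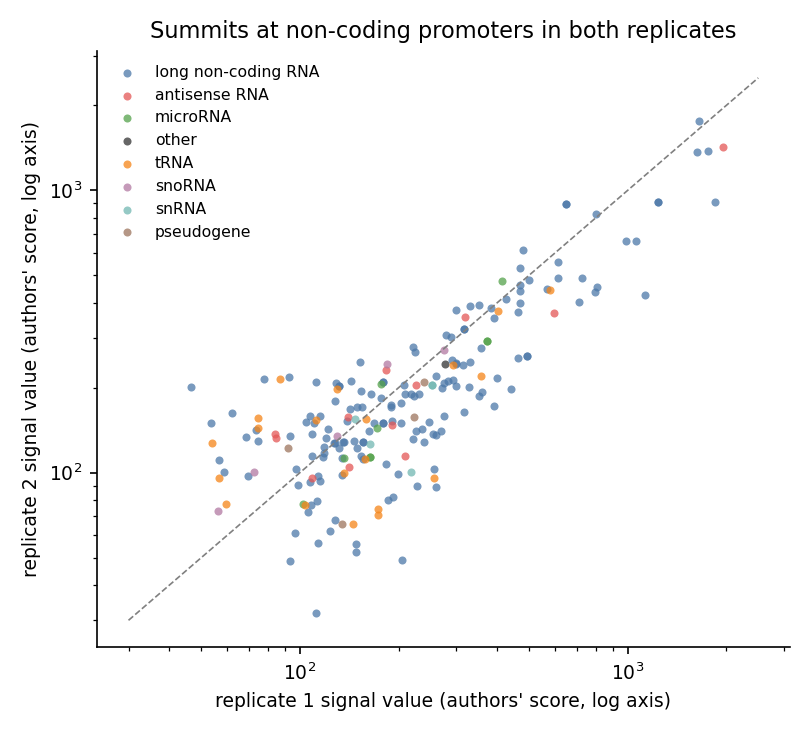
Signal value in replicate 1 (horizontal, log axis) and replicate 2 (vertical, log axis) of the 215 members with a peak in both lists, coloured by kind of gene; the dashed line marks equal values. Of the highest members, CR44619 (1644 and 1757) lies near the line, while CR43287 (1843 and 910) and CR46036 (1131 and 426.6) lie off it. The largest differences in rank are at low values, where most tRNA summits lie.

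Summits gathered near non-coding starts even where no coding start was near. The DNA within 1000 bp of a non-coding TSS and of no coding TSS came to 4.464 Mb and held 49.5 summits per Mb (95% Poisson interval 43.2 to 56.5). Coding promoters held 141 per Mb (137 to 146) and the rest of the chromosomes 20.5 per Mb (19.7 to 21.4). Poisson intervals, here and below, treat summits as independent. Since 30.3% of members and 28.1% of all summits had another summit within 1000 bp, these intervals are likely too narrow. Within introns of protein-coding genes, the density was 59.6 per Mb (46.6 to 75) near non-coding starts and 31.1 (29.6 to 32.8) elsewhere. Outside protein-coding genes it was 54.4 (45.8 to 64.1) and 15.6 (14.3 to 16.9).

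The same held at each distance from the coding start. Between 1000 and 2000 bp from a coding TSS, there were 54.2 summits per Mb (41.0 to 70.4) near non-coding starts and 34.5 (31.7 to 37.5) elsewhere. Between 2000 and 5000 bp, the densities were 58.5 (46.5 to 72.6) and 24.4 (22.5 to 26.3). Beyond 5000 bp, they were 40.9 (32.6 to 50.7) and 15.1 (14.1 to 16.1). Sequence content, chromatin state and gene activity differ along the genome and were not matched here, and their part in the result was not tested. By kind, the density was 57.6 per Mb (49.2 to 67.1) near lncRNA starts, 79.9 (50.6 to 120) near tRNAs and 117 (37.8 to 272) near snRNAs, the last on 5 summits. Of those 5, 2 at U5:63BC shared the same peak of both replicates. The density was 33.4 (16.7 to 59.7) near miRNAs, 29.1 (9.45 to 67.9) near snoRNAs, 28.8 (15.3 to 49.3) near antisense RNAs and 14.5 (4.71 to 33.8) near pseudogenes, and each of these 4 intervals spans the density of the rest of the chromosomes.

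Counted by gene, 544 of the 3738 non-coding genes (14.6%, 13.4 to 15.7) had a reproducible summit no more than 1000 bp from a TSS, against 4449 of 13945 protein-coding genes (31.9%, 31.1 to 32.7). Most of these 544 genes shared their summit with a coding promoter. A total of 224 genes had a member summit in reach, and 320 had only summits that also lay within 1000 bp of a coding TSS. Where a non-coding gene had a TSS within 1000 bp of a coding TSS, 27.5% (24.8 to 30.2) had a summit. Where every TSS was over 2000 bp from a coding TSS, 7.88% (6.75 to 9.13) had one.

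Several kinds of gene split along this line, in part by construction. A gene close to a coding start can reach the summit of that coding promoter, and 31.9% of protein-coding genes had a summit. Antisense RNAs had a summit at 34.0% of genes (28.6 to 39.7) close to a coding start and at 4.31% (1.41 to 9.77) of those far from one. For snoRNAs, which guide the modification of ribosomal RNA and in flies mostly sit in introns of host genes, the shares were 41.2% (30.6 to 52.4) and 4.21% (1.16 to 10.4). For miRNAs they were 25% (15 to 37.4) and 1.99% (0.412 to 5.70), and for lncRNAs 23% (19.1 to 27.2) and 8.61% (7.11 to 10.3). For tRNAs they were 30.4% (20.5 to 41.8) and 20.4% (14.5 to 27.3), with overlapping intervals. For snRNAs they were 20.0% (0.505 to 71.6), or 1 of 5 genes, and 25% (8.66 to 49.1), or 5 of 20, so that no such split was seen on these few genes. Many tRNA genes lie in clusters: 38 of them had a member summit in reach from 23 such summits, so tRNA genes are not independent counts. None of the 99 annotated ribosomal RNA genes had a summit, with an interval up to 3.66%. These genes together had 0.04459 Mb of DNA within reach of non-coding starts only. They lie close together and are not independent counts, so the interval is too narrow. Repeated sequence was measured in summit windows only, so whether peaks could be called at these genes was not tested.

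**Figure D3:**
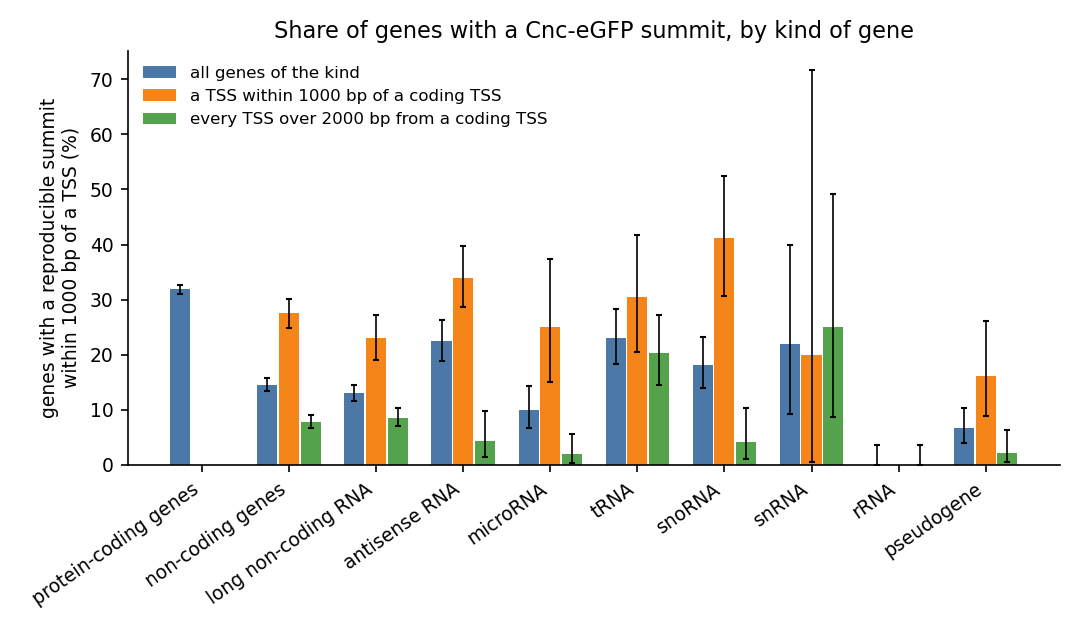
Percentage of genes with a reproducible summit no more than 1000 bp from a TSS, for all genes of each kind, those with a TSS within 1000 bp of a coding TSS and those with every TSS over 2000 bp from one; bars carry exact 95% binomial intervals. Among genes far from coding starts, snRNAs reach 25%, on 20 genes, tRNAs 20.4% and lncRNAs 8.61%, while antisense RNAs, miRNAs and snoRNAs lie below 5%.

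Around the start itself, members were spread more widely than summits at coding promoters. Of the 221, 123 (55.7%, 48.8 to 62.3) lay upstream of the nearest non-coding TSS. Of these, 115 lay upstream of the whole gene and 8 inside it, before an inner start (named after their values were seen, CR43650, Hsromega, roX1, CR44709, CR46006, CR43963, CR43626 and mir-4962, whose inner start is that of a mature miRNA). In all, 64 members lay inside the gene and 42 past its 3′ end. The median gene length was 599 bp. Within 250 bp of the TSS lay 36.2% (29.9 to 42.9) of members and 70.6% (69.2 to 72.1) of coding-promoter summits. Coding-promoter summits were upstream of the nearest coding TSS in 71.4% (69.9 to 72.8). Members still had a peak of density just upstream: 47 of them (21.3%, 16.1 to 27.3) lay in the 200 bp before the TSS and 18 (8.14%, 4.9 to 12.6) in the 200 bp after it. At coding promoters these shares were 46.6% and 15.3%. An example close to the start was snRNA:U6:96Ac at 23 bp upstream.

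**Figure D4:**
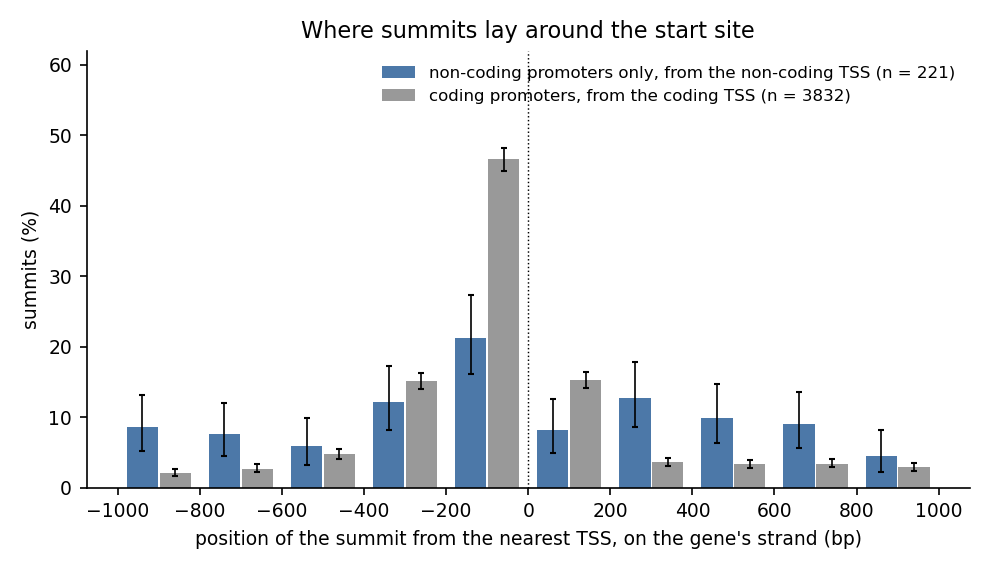
Percentage of summits in 200-bp bins of signed distance to the nearest TSS of the class (negative is upstream), for the 221 members and for 3832 coding-promoter summits, with exact 95% binomial intervals. Coding-promoter summits pile up in the 200 bp before the start (46.6%), members less so (21.3%).

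Some of the best studied non-coding genes were among the members. The dosage compensation RNA roX1, which brings the male-specific lethal complex to the X chromosome, had a summit inside the gene, 157 bp after its 5′ end and 115 bp before an inner start, with a signal value of 425.2, 188.9 in replicate 1 and 171.0 in replicate 2. Its partner roX2 had its nearest reproducible summit 1446 bp away, at the promoter of nod. Hsromega, the heat-inducible RNA that organises nuclear omega speckles, had a summit inside the gene, 251 bp after its 5′ end and 243 bp before an inner start, with 435.9 in the pooled call, 316.3 in replicate 1 and 164.6 in replicate 2. The flam locus, a source of piRNAs that silence transposons in ovarian somatic cells, had a summit 152 bp upstream of its start with 214.5, close to the lowest value in the list. The nearest reproducible summit to mir-8, a miRNA that promotes growth through insulin signalling in the fat body, lay 839 bp upstream with 674.5 in the pooled call. It was nearer to an inner start of the lncRNA CR43650 and lay inside that gene.

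Most other named genes were not members. No reproducible summit lay within 1000 bp of bxd, iab8, let7C, mir-bft, mir-14, mir-34, mir-276a, mir-9a, acal, yar, sphinx or noe. The growth-promoting miRNA bantam had its nearest 1312 bp upstream. The U snoRNA host genes Uhg1, Uhg2, Uhg4 and Uhg8 and the snRNA gene 7SKa had a summit within 1000 bp, at 706, 197, 169, 242 and 375 bp, but each of these also lay at a coding promoter. Uhg3, Uhg5, Uhg7, 7SKb, both copies of the signal recognition particle RNA and the RNAs of RNase P and RNase MRP had none in reach.

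Among short RNAs, the miRNA members were led by mir-275 (905 in the pooled call, 459 bp upstream), then mir-9377 in an intron of Tis11 with 655.2 and 420.6 at 2 summits, and mir-4962 in Tlk with 461.6. The mir-275 summit also lay inside the lncRNA gene CR43857, on the same strand, and in a non-coding exon. The 5 snRNA summits stood at genes of the spliceosome. They were U5:63BC with 450.3 and 295.7, U4:39B with 336.5, U1:95Ca with 275.5 and U6:96Ac with 231.8. The summit window of U5:63BC with 450.3 was the sole member window in which most of the 32-base words (84.3%) occurred again in the genome, so that reads there may be shared with another copy. How the authors handled such reads is not stated. The tRNA members included tRNA:Ala-TGC-2-1 with 731.8, tRNA:Lys-TTT-1-1 with 591.3 and tRNA:Glu-CTC-3-1 with 496.3. Of the tRNA:Arg-ACG-1-1 summits, all 3 lay in an intron of EcR, the ecdysone receptor, with 318.5, 269.0 and 239.2, and another EcR intron summit was at tRNA:Asn-GTT-1-2.

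Most members lay outside protein-coding genes. Of the 221, 143 (64.7%, 58 to 71) lay outside protein-coding genes and 72 (32.6%, 26.4 to 39.2) in an intron of one. The intronic share was 28.5% of coding-promoter summits, 70.3% of summits away from promoters and 42.9% of all. The DNA in reach differed as well. Introns made up 1.209 of the 4.464 Mb near non-coding starts only, and 47.43 of the 102.3 Mb elsewhere. Per Mb, members were not sparser in introns (59.6, 46.6 to 75) than outside protein-coding genes (54.4, 45.8 to 64.1). No member lay in a coding exon. The 72 intronic members lay in 58 host genes. The non-coding gene ran opposite to its host at 42 (58.3%, 46.1 to 69.8) and along it at 29. At 1, tRNA:Glu-CTC-3-1, the hosts ru and Ptp61F ran on different strands. The strands of all non-coding genes in introns were not counted for comparison. The hosts with most members were osa with 5, and EcR and the chromodomain gene kis with 4 each. In 19 of the 72, the member was the highest reproducible summit of its host gene, counted to 1000 bp beyond either end, and in 7 of them the host had no other. The same count was not made for other intronic summits, so this share has no background beside it. These 19 included the summits in Zw, osa, CHES-1-like, mbl, LpR2 and Socs36E. They also included 626.8 at the antisense RNA CR44911 in bur, the gene of GMP synthetase, and 503.3 at CR45134 in whd, the gene of carnitine palmitoyltransferase.

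Members had close neighbours about as often as other summits. Another reproducible summit lay within 1000 bp of 67 members (30.3%, 24.3 to 36.8), against 28.1% (27.0 to 29.2) of all summits. The lncRNA genes nearest to a member had a median length of 668 bp, against 662 bp for the other lncRNA genes. On chromosome arm 3R lay 16.7% (12.1 to 22.3) of members and 24.7% of all summits, and on 3L 25.8% (20.2 to 32.1) and 21.3%. The DNA near non-coding starts only was not counted by arm, so these shares do not show a preference for an arm.

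The limits of the rule passed through a continuous range. The member farthest from its non-coding TSS was the summit of CR44513 at 998 bp, with a signal value of 409.3, and the nearest summit outside was 1002 bp from CR32218, with 252.8. The member nearest to a coding TSS stood 1021 bp from CG43389 with 493.7, at CR43626. The nearest summit left out for its coding neighbour was at CR43130, 945 bp from aqz, with 307.5. In all, 15 members had a coding TSS up to 250 bp beyond the limit, the summit in Zw among them.

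The motif of Cnc itself was scarce under the members. The Cnc-Maf motif TGACNNNGC, searched on both strands, was in 7 of 221 windows (3.17%, 1.28 to 6.42). It was in 2.61% of coding-promoter windows, 2.90% of windows away from promoters and 3.62% (2.08 to 5.81) of windows 1000 bp to either side of members, so that the share was no higher than in the flanks. Most fixed letters of the motif are G or C. The flanks had a higher mean GC content, 40.6% against 34.8% in member windows, and the comparison was not matched for it. The 7 members were CR44512, CR45234, the lower summit of CR45997 (520.8), CR45540 (441.6), CR45128 (347.4), a summit of tRNA:Arg-ACG-1-1 (318.5) and CR44467 (230.0). The AP-1 form TGANTCA, which the strict Cnc-Maf motif contains, was in 2.26% of member windows and 2.47% of all.

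Of the motifs known from housekeeping promoters, the DREF site and the M1BP core were rare. The DREF site TATCGATA was in 1 member window (0.452%, 0.0115 to 2.50), that of the pseudogene CR14117 (named after the match was seen), against 4.23% (3.61 to 4.91) at coding promoters and 0.143% away from promoters. The M1BP core GGTCACACT was in none, which allows up to 1.66%, against 1.23% (0.903 to 1.63) at coding promoters. These intervals overlapped, so a lower M1BP share in members is not shown. The BEAF core CGATA, which the DREF site contains, was in 12.7% (8.59 to 17.8) of member windows, 7.69% (5.39 to 10.6) of their flanks, 22.4% (21.1 to 23.8) of coding-promoter windows and 11.7% away from promoters. The TATA box TATAAA was in 14.0% (9.73 to 19.3), close to the 13.6% of the flanks and below the 21.8% of both coding promoters and sites away from them. Runs of 7 A or T were in 13.6% and GAGAGA in 5.43%, against 12.2% and 4.39% of all windows.

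The remaining motifs were in at most 2 member windows each. The E-box CACGTG was in 2, the Zelda site CAGGTAG and the tRNA B box core GGTTCGA in 1 each, and the CRE TGACGTCA in none. Member windows had a mean GC content of 34.8%, near the 34.4% of all summit windows, while their flanks had 40.6% and the flanks of all summits 43.2%. A motif match is a description of the letters in the window, and no match says nothing of the factor.

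**Figure D5:**
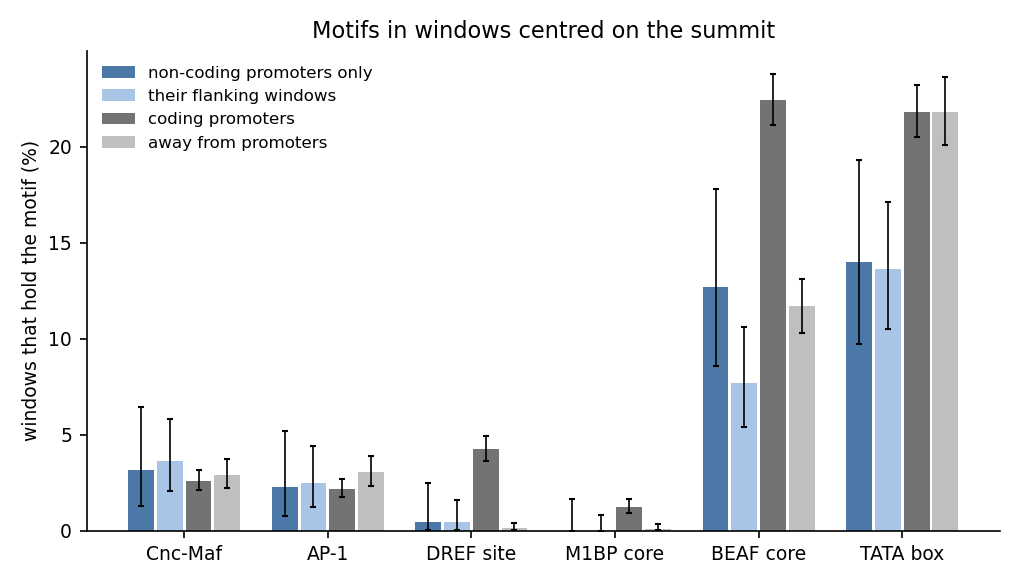
Percentage of windows of 50 bp either side of the centre that hold each motif, for members, windows 1000 bp to either side of members, coding-promoter summits and summits away from promoters, with exact 95% binomial intervals. The DREF site stands out at coding promoters. The M1BP core is highest there too, but with an interval that overlaps that of members. The Cnc-Maf motif is at a like level in all 4 groups.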

How the data were processed

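Chromatin immunoprecipitation sequencing of Cnc-eGFP was analysed from 2 biological replicates of 1 group. The peak lists on dm6 were used as deposited. Each replicate and the pool of both had a list of 30000 peaks, called against a control, and a reproducible list of 6153 peaks was selected by irreproducible discovery rate, per the deposited file lists. The authors deposited a signal value and a −log10 q-value for each peak. Every reproducible peak was found unchanged in the pooled list, so its signal value is that of the pooled call. Caller, aligner and thresholds are not given in the sources used. Read numbers were not used, so depth is unknown; shares carry exact binomial intervals for counting error over summits or genes.

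Gene models came from Ensembl release 115, without transposable elements, on 6 chromosome arms, and sequence from RefSeq. Ensembl's ncRNA class was divided by gene symbol, and 481 mature miRNA entries were counted under their hairpins. A replicate value is the highest signal value of an overlapping peak (1 bp or more). Motifs were counted on both strands. Scripts used Python 3.11.15, numpy 2.4.6, pandas 2.3.3 and scipy 1.17.1 and were tested on simulated data. With 1 group no test between conditions was made.

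The members, lists and motifs were chosen with earlier results of these data known. Named were the 25 highest members, up to 4 of each kind, a list of known non-coding genes, members at the limits of the rule, up to 10 with the Cnc-Maf motif, and up to 3 each way with the largest rank difference. Members of small counts, the U6 gene and the EcR, kis and osa summits were named after their values were seen. Vinc and Uhg6 of that list matched no non-coding gene. A summit window of the snRNAs is not reported here. Alternatives changed the distance, the TSS set, the peak list, the overlap, the window and the replicates.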

Additional observations from a re-analysis of the deposited data

How the results depend on the processing

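Without replicate 1 and then without replicate 2, the number of member summits was 227 and 217, the share of non-coding genes with a summit 14.7% and 14.8%, the share upstream 53.3% and 54.4%, the intronic share 32.6% and 32.7%, the share with the Cnc-Maf motif 2.20% and 4.15%, and the lncRNA share 70.0% and 74.7%. At 500 bp the gene share was 8.51%, the Cnc-Maf share 1.15% and the lncRNA share 64.9%. At 2000 bp the gene share was 23.1%. With gene 5′ ends only, the intronic share was 42.0%. Among the 3076 highest peaks there were 100 members, with a gene share of 7.52% and 99.0% in both replicates. In the whole pooled list there were 1191, with a gene share of 42.9%, 59.0% in both replicates and 59.9% at lncRNAs. The share in both replicates was 81.9% when 0.5 of the peak had to overlap and 71.9% when each replicate list was taken to its highest peaks. Fewer or more peaks and shorter or longer reach change these counts by construction; the cause of the other shifts was not tested. In the other settings the shares and the median stayed within their counting intervals. The summit density near non-coding starts over that elsewhere, a ratio recomputed after the data were seen, was 2.41 (2.09 to 2.77) in the reported setting, 2.48 and 2.46 without each replicate, 1.64 in the whole pooled list and between 2.22 and 2.63 otherwise. The comparisons by kind of gene, by distance from coding starts and with flanks were made in the reported setting only. No paired analysis was possible because there is 1 group and no test. The list length is fixed and depth is unknown, so a gene without a summit is not shown to be unbound.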
